A study of Mus musculus with 6 samples.

Results

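The mitochondrial ribosomal protein genes are the nuclear genes whose symbol on the array's platform annotation begins with Mrpl (large subunit) or Mrps (small subunit) followed by a number. They were taken by symbol alone, whatever their signal, and came to 76 of the 19057 genes with a named probe. Of these, 48 belonged to the large and 28 to the small subunit. Expression was measured with Illumina bead arrays in total RNA of mouse hybridomas, cell lines that come from the fusion of a lymphocyte and a tumour cell. The producing group was 3 arrays of hybridoma S2, which makes the cytokine IL-17, and the non-producing group was 3 arrays of hybridoma DE3, which does not. All hybridomas were grown in RPMI medium with 10% fetal calf serum, and no treatment, time or allele is given that would set the groups further apart. Each group carried 1 clone name, so a difference is between 2 cell lines, and any feature of either clone is part of it. The labels do not say whether the 3 samples of a group were separate cultures, so the p-values rest on a spread between samples that may be no more than technical.

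Mitochondria carry their own ribosomes, which translate the few messenger RNAs of mitochondrial DNA into core subunits of the respiratory chain. Their RNA is made inside the organelle, whereas every protein of the ribosome is encoded in the nucleus, made in the cytosol and imported. Many of these proteins descend from bacterial ribosomal proteins, others were added in the mitochondrial line, and the large subunit anchors the ribosome at the inner membrane where the new chain leaves. In lymphocytes, mitochondrial translation is known to be raised when resting cells begin to grow and divide.

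The genes are scattered over the nuclear chromosomes, and their promoters are known for sites of the ETS factor GABP, of NRF1 and of YY1. RefSeq promoter windows of the GRCm38.p6 assembly, from 250 bases before to 50 after the annotated start, were at hand for 67 of the 76 genes. The letters CCGGAAG (ETS core), searched on both strands, stood in 26 of these 67 genes (38.8%), against 9.93% of 27025 genes of all kinds and 12.9% of 17492 protein-coding genes. GCGCATGC (NRF1) was found in 8 genes (11.9%), against 3.05% of all and 3.94% of coding genes. AAGATGG (YY1) was found in 13 genes (19.4%), against 7.28% of all and 7.18% of coding genes. At least 1 of the 3 motifs was present in 38 genes (56.7%), against 18.6% of all and 21.8% of coding genes. In the windows shown no match overlaps another. A match is a description of the letters and not a binding site, and a window without one says nothing about the factor.

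Shown next are the promoters of 5 genes, from 250 bases before to 30 after the start, each read 5′ to 3′ on the gene's strand with the motifs in capitals. Mrpl49 and Mrpl58 are among the largest increases described further on, Mrpl24 and Mrpl17 among the largest decreases, and Mrps7 is a decrease in the small subunit. The 2 ETS cores of Mrpl58, at -17 and -2 from the start, lie on chr11:115403502-115403781 (plus strand).
Mrpl58: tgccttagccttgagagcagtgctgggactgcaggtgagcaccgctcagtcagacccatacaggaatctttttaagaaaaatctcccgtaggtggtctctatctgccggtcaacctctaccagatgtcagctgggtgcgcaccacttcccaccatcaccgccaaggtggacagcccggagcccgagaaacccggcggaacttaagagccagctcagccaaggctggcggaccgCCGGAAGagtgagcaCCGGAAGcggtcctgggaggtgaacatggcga
The ETS core at -237 and the NRF1 motif at -11 of Mrpl17 lie on chr7:105811058-105811337 (minus strand).
Mrpl17: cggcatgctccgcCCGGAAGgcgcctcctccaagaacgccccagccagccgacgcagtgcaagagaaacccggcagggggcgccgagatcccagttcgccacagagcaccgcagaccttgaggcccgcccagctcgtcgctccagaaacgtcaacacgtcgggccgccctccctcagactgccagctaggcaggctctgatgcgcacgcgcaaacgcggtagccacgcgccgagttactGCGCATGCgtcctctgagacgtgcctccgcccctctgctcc
The YY1 motifs at -215 and 17 of Mrpl49 lie on chr19:6057726-6058005 (minus strand).
Mrpl49: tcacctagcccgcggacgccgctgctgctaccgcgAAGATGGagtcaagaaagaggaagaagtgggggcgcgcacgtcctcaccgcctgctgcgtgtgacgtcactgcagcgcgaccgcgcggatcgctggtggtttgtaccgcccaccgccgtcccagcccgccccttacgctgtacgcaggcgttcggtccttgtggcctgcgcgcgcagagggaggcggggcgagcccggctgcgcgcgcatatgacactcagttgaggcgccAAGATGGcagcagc
The YY1 motif at 19 of Mrps7 lies on chr11:115603890-115604169 (plus strand).
Mrps7: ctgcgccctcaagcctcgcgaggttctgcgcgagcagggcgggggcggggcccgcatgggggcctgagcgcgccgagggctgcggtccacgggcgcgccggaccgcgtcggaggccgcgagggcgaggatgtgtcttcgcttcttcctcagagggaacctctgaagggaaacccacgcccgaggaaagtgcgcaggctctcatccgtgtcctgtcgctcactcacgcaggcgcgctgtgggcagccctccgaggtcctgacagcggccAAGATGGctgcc
Mrpl24, on chr3:87919294-87919573 (plus strand), held none of the 3 motifs.
Mrpl24: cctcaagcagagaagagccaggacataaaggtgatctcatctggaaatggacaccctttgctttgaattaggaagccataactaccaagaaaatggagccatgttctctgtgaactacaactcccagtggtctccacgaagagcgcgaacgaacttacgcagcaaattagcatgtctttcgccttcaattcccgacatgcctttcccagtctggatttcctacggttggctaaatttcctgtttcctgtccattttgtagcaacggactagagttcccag

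Signals were read on a log2 scale after background correction and quantile normalization. A probe was tested if it stood above background (detection p under 0.05) on at least 3 of the 6 arrays, and a gene was read from its brightest tested probe. The genes were covered by 132 probes, of which 114 were tested. Mrpl19 and Mrpl32 of the large and Mrps14 of the small subunit were not above background on any array, with detection p-values of 0.408 to 0.893, 0.467 to 0.953 and 0.372 to 0.91 for the probe with the highest signal, and they enter no comparison. The other 73 genes, 46 large and 27 small, were tested among 9395 genes. Of these 73, 72 were detected on all 6 arrays, as were 8191 of all 9395 tested genes. The exception was Mrpl45, which was detected on 2 of 3 arrays of each hybridoma.

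Mean signal per array was 454, 482 and 399 on the producing arrays and 559, 518 and 505 on the non-producing arrays before normalization. A share of 36.9%, 37.4% and 37.2% of the probes was detected on the producing arrays, against 39.4%, 38.0% and 38.2% on the non-producing arrays. Arrays of a group correlated across probes at 0.996 to 0.997. The arrays shared 1 chip, on which each group filled a block of its own, so position on the chip and group cannot be told apart. Of 10 T lymphocyte markers, 9 had a probe and 7 were tested, and Cd2 and Cd5 were not above background on enough arrays for a test. Cd3d, Cd3g and Thy1 were lower in the producing hybridoma by -0.996, -0.67 and -0.47 on the log2 scale, whereas Cd247 and Zap70 were higher by 0.54 and 0.30 (limma, Benjamini-Hochberg adjusted p from 0.00023 to 0.018). The other probes of Cd247 read 0.06 and -0.25 and did not pass, whereas all 3 probes of Zap70 were higher. No B lymphocyte marker was above background on enough arrays for a test (0 of 6). Of 8 myeloid markers only Lyz1 was tested, at 4.53 in the producing against 5.59 in the non-producing hybridoma. The part of these markers in the results was not tested, and in bulk RNA fewer cells of a kind and less RNA per cell cannot be told apart.

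The first question was which of these genes differed between the producing and the non-producing hybridoma. Of the 73 tested genes, 20 passed the threshold of 0.05 on the adjusted p (limma, Benjamini-Hochberg over all tested probes). In the producing hybridoma, 10 of the 20 were higher and 10 were lower. Among all tested genes, 36.7% passed, 18.1% higher and 18.6% lower, so the share of 27.4% among the mitochondrial ribosomal protein genes lay below the share of all genes. Log2 differences, producing minus non-producing, ran from -0.59 for Mrpl24 to 0.74 for Mrpl49, and none of the 73 reached 2-fold. Of all 9395 tested genes, 341 both passed the threshold and differed by at least 2-fold. The middle 50% of the 73 differences lay between -0.06 and 0.18, against -0.21 and 0.21 over all genes. Their median size without sign was 0.15, against 0.21 over all genes. A difference above 0 was seen in 47 genes and one below 0 in 26, with a median of 0.03 against 0.00 over all genes. This median turned to -0.21 when arrays were scaled by their median alone, a setting that placed the median of all tested genes at -0.23. The 3 producing and 3 non-producing arrays did not overlap for 33 of the 73 genes, where 51.3% of all tested genes were without overlap.

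**Figure D1:**
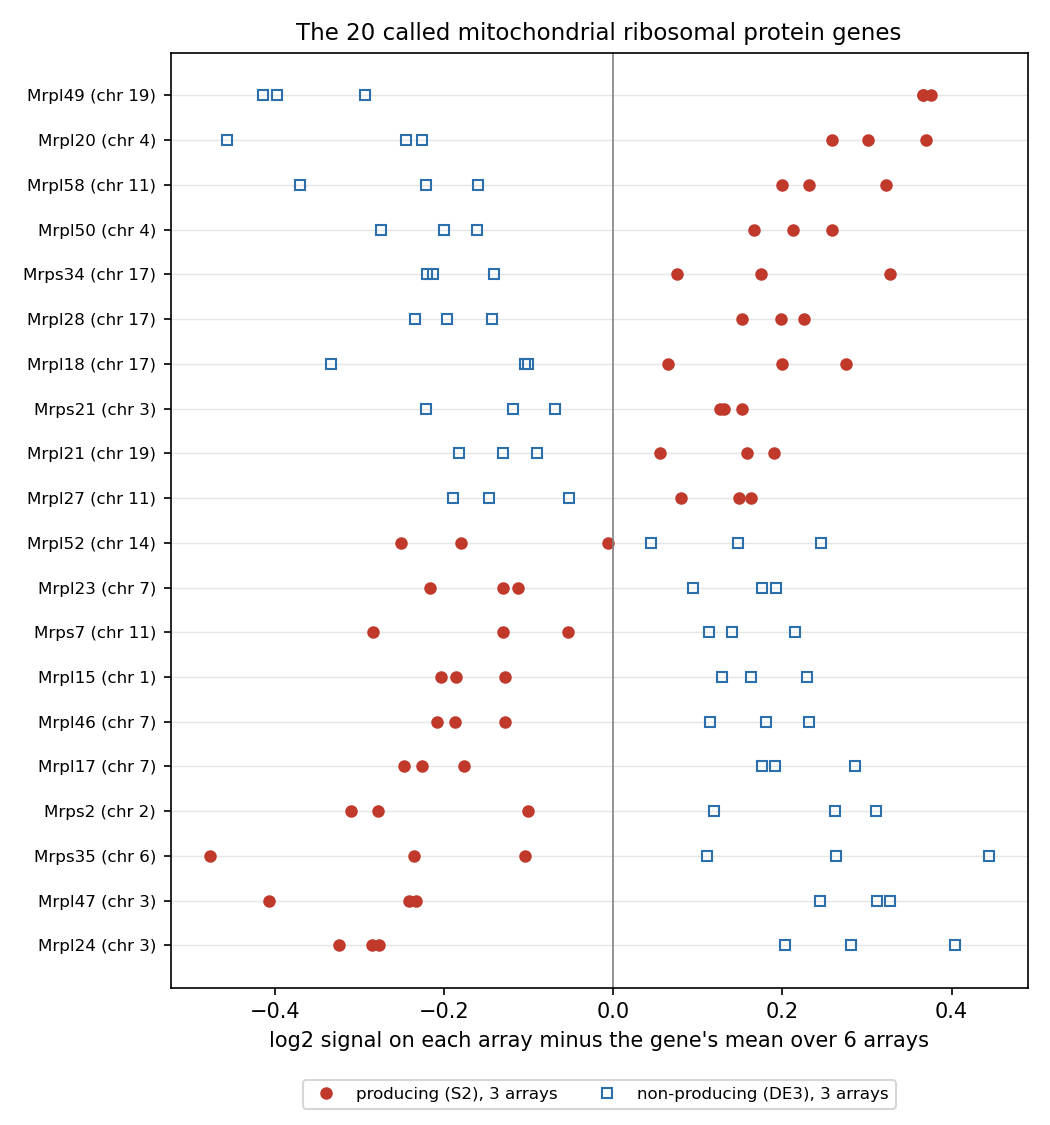
Log2 signal of the 20 genes past the threshold on each of the 6 arrays, as the distance from the gene's own mean over the arrays (x axis), with 1 gene a row and its chromosome in parentheses. Filled points are the 3 producing (S2) arrays and open squares the 3 non-producing (DE3) arrays; in each of the 20 rows the groups are apart, with producing arrays to the right for the 10 upper and to the left for the 10 lower genes.

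The increase with the largest size was that of Mrpl49, a large subunit protein without a bacterial counterpart. It read 10.89, 10.88 and 10.88 on the producing arrays and 10.10, 10.22 and 10.11 on the non-producing arrays. This difference of 0.74, or 1.67-fold, had a standard error of 0.07 and an adjusted p of 0.000207 (limma, Benjamini-Hochberg). All producing arrays lay above all non-producing arrays, and the other 3 tested probes of the gene differed by 0.56, 0.48 and 0.27, the last of them short of the threshold with an adjusted p of 0.0522.

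Mrpl20, the counterpart of a bacterial protein that binds the large ribosomal RNA early in assembly, read 11.33, 11.44 and 11.37 on the producing arrays and 10.82, 10.61 and 10.84 on the non-producing arrays. Its log2 difference was 0.62 ± 0.09 (standard error; limma, Benjamini-Hochberg adjusted p = 0.00129). Mrpl58 is built into the large subunit and is a peptidyl-tRNA hydrolase that frees stalled chains. It read 9.70, 9.66 and 9.79 on the producing arrays and 9.30, 9.09 and 9.24 on the non-producing arrays, a difference of 0.50 ± 0.09 (limma, adjusted p = 0.00299). Groups were apart for both genes by more than the spread within either group.

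Mrpl50, another mitochondrial addition to the large subunit, read 10.65, 10.70 and 10.61 on the producing arrays and 10.28, 10.24 and 10.17 on the non-producing arrays (difference 0.42 ± 0.08; limma, adjusted p = 0.00358). Mrps34, a small subunit protein known only from mitochondria, read 11.75, 11.65 and 11.90 on the producing arrays and 11.35, 11.43 and 11.36 on the non-producing arrays (0.38 ± 0.09; limma, adjusted p = 0.0113). Mrpl28, whose bacterial counterpart is L28, read 12.71, 12.78 and 12.76 on the producing arrays and 12.42, 12.32 and 12.36 on the non-producing arrays (0.38 ± 0.07; limma, adjusted p = 0.00509). These 3 genes again had no overlap between the groups, and Mrps34 varied most among the producing arrays.

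Mrpl18, a protein of the central protuberance of the large subunit, read 11.29, 11.15 and 11.36 on the producing arrays and 10.75, 10.98 and 10.98 on the non-producing arrays. The difference of 0.36 ± 0.10 passed the threshold (limma, adjusted p = 0.0229) and no longer did without producing array 1, producing array 3 or non-producing array 1, at adjusted p-values of 0.0638, 0.0690 and 0.0601. The non-producing array 1 stood well below the other two arrays of its group. Mrps21, the counterpart of bacterial S21, read 11.58, 11.60 and 11.57 on the producing arrays and 11.22, 11.33 and 11.38 on the non-producing arrays (0.27 ± 0.08; limma, adjusted p = 0.0257). Its call was kept only without non-producing array 3, with adjusted p-values of 0.0561 to 0.0689 when any other array was left out. The remaining increases were Mrpl21, a bacterial-type protein of the large subunit (0.27; limma, adjusted p = 0.0285), and Mrpl27, whose bacterial counterpart reaches toward the peptidyl transferase centre (0.26; adjusted p = 0.0320). Mrpl21 was short of the threshold without producing array 1 or 2 or non-producing array 2 or 3 (0.0723 to 0.0933), and Mrpl27 without producing array 1 or 2 or non-producing array 1 or 3 (0.0776 to 0.0908). Mrpl27 also stood at -0.03 when arrays were scaled by their median alone, with the median of all tested genes then at -0.23.

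Among the decreases, Mrpl24 and Mrpl47 were nearly equal in size. Both proteins lie around the opening of the tunnel through which the new chain leaves the large subunit. Mrpl24 read 10.10, 10.06 and 10.11 on the producing arrays and 10.59, 10.79 and 10.67 on the non-producing arrays. Its difference of -0.59 had a standard error of 0.08 and an adjusted p of 0.00102 (limma, Benjamini-Hochberg), so that signal in the non-producing hybridoma was 1.51 times that in the producing one. Mrpl47 read 10.88, 11.04 and 11.05 on the producing arrays and 11.60, 11.61 and 11.53 on the non-producing arrays (-0.59 ± 0.08; limma, adjusted p = 0.00109). No producing array reached a non-producing one for either gene, although a second and much dimmer probe of Mrpl47 differed by -0.17 and did not pass (adjusted p = 0.326).

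Mrps35, a small subunit protein without a bacterial counterpart, read 9.93, 10.06 and 9.68 on the producing arrays and 10.61, 10.27 and 10.42 on the non-producing arrays (-0.55 ± 0.12; limma, adjusted p = 0.0107). Mrps2, the counterpart of bacterial S2, read 8.39, 8.42 and 8.60 on the producing arrays and 8.82, 8.96 and 9.01 on the non-producing arrays (-0.46 ± 0.09; limma, adjusted p = 0.00626). Mrps35 had the widest scatter within both hybridomas of the 10 decreases, and its groups were still apart.

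Mrpl17, a further neighbour of the exit tunnel, read 12.38, 12.43 and 12.36 on the producing arrays and 12.80, 12.79 and 12.90 on the non-producing arrays (-0.43 ± 0.07; limma, adjusted p = 0.00309). Mrpl46, a mitochondrial protein of the central protuberance, read 12.17, 12.11 and 12.09 on the producing arrays and 12.41, 12.48 and 12.53 on the non-producing arrays (-0.35 ± 0.08; limma, adjusted p = 0.00854). Mrpl15, a bacterial-type protein of the large subunit, read 11.53, 11.60 and 11.55 on the producing arrays and 11.89, 11.86 and 11.96 on the non-producing arrays (-0.35 ± 0.07; limma, adjusted p = 0.00843). This holds for its brightest probe, and its other probes disagreed, as described further on. In these 3 genes the arrays of each hybridoma lay close together and the groups were apart.

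Mrps7, which sits in the head of the small subunit near the path of the messenger RNA, read 11.81, 11.88 and 11.65 on the producing arrays and 12.15, 12.08 and 12.05 on the non-producing arrays. Its difference of -0.31 ± 0.09 (limma, adjusted p = 0.0251) was kept only without producing array 2, with adjusted p-values of 0.0532 to 0.0729 when any other array was left out. Mrpl23, at the exit tunnel, was lower by -0.31 (limma, adjusted p = 0.0156) and lost its call without producing array 1 (0.0595), non-producing array 2 (0.0516) or non-producing array 3 (0.0565). Mrpl52, a mitochondrial addition to the large subunit, was lower by -0.29 (limma, adjusted p = 0.0457) and kept its call only without producing array 2 (0.0540 to 0.140 otherwise). Of the 20 genes past the threshold, 13 passed it without each array in turn. In these fits with 5 arrays, 28.1% to 31.7% of all tested genes passed, against 36.7% with all 6.

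The 4 differences of largest size that did not pass were those of Mrps15 (0.34; limma, adjusted p = 0.155), Mrps23 (0.30; adjusted p = 0.0678), Mrpl11 (0.28; adjusted p = 0.0624) and Mrps30 (-0.24; adjusted p = 0.0963). Mrps15 overlapped between the hybridomas, with 8.81, 9.15 and 8.88 on the producing and 8.93, 8.28 and 8.61 on the non-producing arrays. The other three did not overlap.

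The second question was how the large and the small subunit compared. In the large subunit 8 genes were higher, 7 were lower and 31 did not pass, and the median difference was 0.04. In the small subunit 2 were higher, 3 were lower and 22 did not pass, and the median was 0.03. When arrays were scaled by their median alone, both medians were -0.21, beside -0.23 for all genes. The share past the threshold was 32.6% of the large and 18.5% of the small subunit genes, beside 36.7% of all tested genes. The difference between the subunits was not tested, since genes are not replicates. Mrps30 and Mrps18a carry a small subunit name but sit in the large subunit of the mammalian ribosome. Counting them there left 48 large and 25 small tested genes with medians of 0.04 and 0.03 and shares of 31.2% and 20%.

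As the median distance of each gene from its own mean over the arrays, the large subunit stood at 0.03, 0.02 and 0.05 on the producing arrays and at -0.09, -0.00 and 0.01 on the non-producing arrays. For the small subunit the same value was -0.01, 0.04 and 0.05 on the producing arrays and -0.11, -0.01 and 0.01 on the non-producing arrays. Non-producing array 1 was thus the lowest for both subunits, while the other 5 arrays lay between -0.01 and 0.05.

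**Figure D2:**
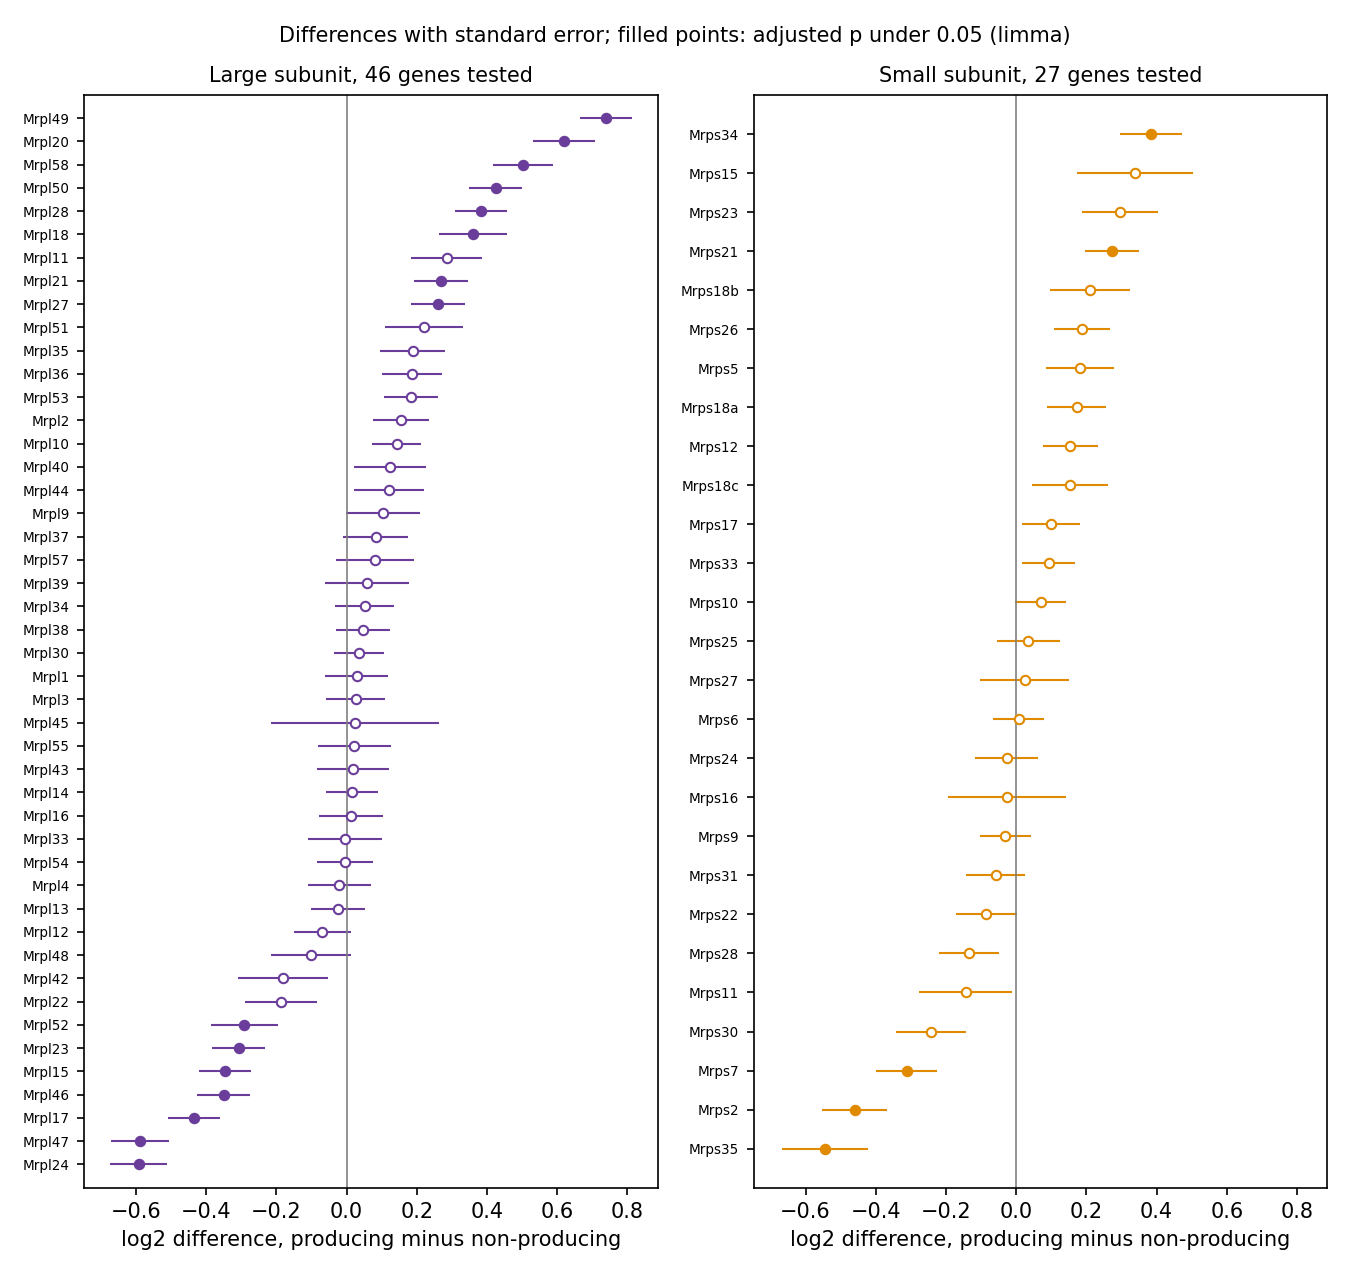
Log2 difference of each tested gene, producing minus non-producing (x axis), with its standard error as a bar, for the 46 large subunit genes (left) and the 27 small subunit genes (right). Filled points passed an adjusted p of 0.05 (limma), which were 8 higher and 7 lower genes in the large and 2 higher and 3 lower in the small subunit; most genes lie close to 0.

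By place in the ribosome, the exit tunnel held 4 of the 10 decreases. Of the 6 genes of this group, Mrpl17, Mrpl23, Mrpl24 and Mrpl47 fell, where 18.6% of all tested genes were lower, and Mrpl22 (-0.19; limma, adjusted p = 0.202) and Mrpl45 (0.02; adjusted p = 0.949) did not pass. The count of increases was 0, also at an unadjusted p of 0.05, and the median difference was -0.37, against 0.00 over all genes. Mrpl22 lines the tunnel wall, and Mrpl45 is the membrane anchor of the mammalian large subunit. The 4 genes that fell lie on chromosomes 3 and 7, and 3 of them passed after the median difference of each chromosome was removed, Mrpl23 being the one that did not (adjusted p = 0.0732).

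The central protuberance, the crest of the large subunit that faces the small one, was mixed. Of the 6 genes listed for it here, Mrpl18 and Mrpl27 were higher and Mrpl46 was lower. Over all tested genes 18.1% were higher and 18.6% lower. Mrpl38 (0.05), Mrpl40 (0.12) and Mrpl48 (-0.10) did not pass. The median of this group was 0.08, or -0.17 under scaling by the array median alone, when the median of all tested genes was -0.23. The stalk that recruits translation factors had 0 of 3 genes past the threshold (36.7% over all tested genes), with 1 at an unadjusted p of 0.05. Mrpl12, the stalk protein itself, read -0.07, and Mrpl10 and Mrpl11 at its base read 0.14 and 0.28.

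In the small subunit, 5 genes line the messenger RNA path or the decoding site. Mrps7 fell, where 18.6% of all tested genes were lower, and Mrps5 (0.18), Mrps11 (-0.14), Mrps12 (0.15) and Mrps24 (-0.03) did not pass. Mrps18a, Mrps18b and Mrps18c, a family of 3 that each descend from bacterial S18, differed by 0.17, 0.21 and 0.15, of which 0 passed, also at an unadjusted p of 0.05 (limma). These 3 values were below 0 when arrays were scaled by their median alone, with the median of all tested genes then at -0.23.

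The proteins can also be split by origin, which placed 67 of the 73 tested genes in 4 classes. Left out were Mrpl55, Mrpl58, Mrps18a, Mrps18b, Mrps28 and Mrps30, of which Mrpl58 was higher and the others did not pass. Mrps18a and Mrps18b descend from bacterial S18, so the classes with a bacterial counterpart are not complete. Among proteins with a bacterial counterpart, 5 of 27 in the large subunit were higher and 5 lower, and 1 of 14 in the small subunit was higher and 2 lower. Among those without one, 2 of 17 in the large subunit were higher and 2 lower, and 1 of 9 in the small subunit was higher and 1 lower. Over all tested genes, 18.1% were higher and 18.6% lower. Median differences of the 4 classes were 0.03, 0.04, 0.06 and 0.03, without a test between them.

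More than 1 tested probe was at hand for 27 of the 73 genes, and some of them disagreed. Mrpl15 was the 1 gene with probes past the threshold in both directions. Of its 7 tested probes, which carry different transcript accessions in the annotation, the 2 brightest fell, by -0.35 and -0.39 (limma, adjusted p = 0.00843 and 0.00537). The dimmest rose by 0.28 (adjusted p = 0.0433), reading 5.973, 5.755 and 6.001 on the producing arrays and 5.643, 5.646 and 5.613 on the non-producing arrays. The other 4 gave -0.11, 0.04, 0.18 and -0.22 and did not pass. The probe at 0.18, annotated to the RefSeq transcript, had no overlap between the groups, as had the one at -0.22. With the mean of its tested probes the gene did not pass, so the decrease is that of its 2 brightest probes.

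Mrps10, of the small subunit head, is a second case. Its brightest probe read 10.11, 10.08 and 10.02 on the producing arrays and 9.99, 9.99 and 10.03 on the non-producing arrays, a difference of 0.07 (limma, adjusted p = 0.499). A second probe of the same transcript accession read 10.41, 10.35 and 10.49 on the producing arrays and 9.70, 9.45 and 9.53 on the non-producing arrays, a difference of 0.86 ± 0.09 (standard error; limma, adjusted p = 0.000292). Another 2 probes gave 0.08 and 0.12 and did not pass, so 1 of 4 probes of this gene differed.

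Mrps12 is the counterpart of the bacterial decoding site protein S12. Its brightest probe read 12.37, 12.38 and 12.33 on the producing arrays and 12.11, 12.25 and 12.26 on the non-producing arrays (0.15; limma, adjusted p = 0.169). Its other probe read 12.04, 12.20 and 12.04 on the producing arrays and 12.49, 12.39 and 12.35 on the non-producing arrays, a difference of -0.32 (adjusted p = 0.0212). The 2 probes, of the same accession, thus separated the hybridomas in opposite directions, and no direction is given for the gene. For Mrpl37 and Mrpl43, the brightest probes gave 0.08 and 0.02 and a second probe 0.32 and 0.31 (adjusted p = 0.0187 and 0.0202). Mrpl48 gave -0.10 and -0.14 on probes that did not pass and -0.40 on one that did (adjusted p = 0.0221).

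**Figure D3:**
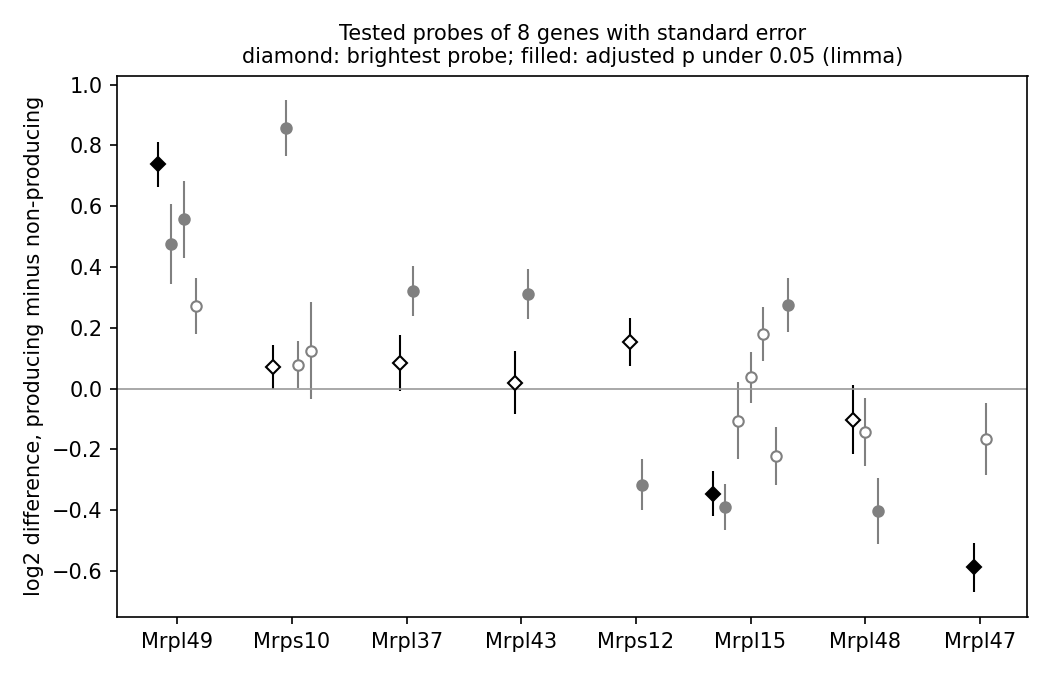
Log2 difference, producing minus non-producing (y axis), with its standard error, of each tested probe of 8 genes (x axis). Diamonds are the brightest probe of a gene, circles its other probes, and filled symbols passed an adjusted p of 0.05 (limma); Mrpl15 has filled symbols on both sides of 0, and Mrps10 has 1 probe at 0.86 beside others near 0.

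The genes share no locus, but their differences followed the chromosome they lie on, a grouping chosen after the values were seen. Over all tested genes, the median difference was 0.27 on chromosome 4, 0.24 on chromosome 16, 0.30 on chromosome 17 and 0.31 on chromosome 19, and it lay between -0.19 (chromosome 3) and 0.01 on the others. The 20 mitochondrial ribosomal protein genes on chromosomes 4, 16, 17 and 19 all had differences above 0, with a median of 0.19, where 80.7% of all tested genes on these chromosomes were above 0 and their median was 0.28. Of these 20, 7 were higher and 0 lower (limma; 8 and 0 at an unadjusted p of 0.05). When arrays were scaled by their median alone, 9 had differences above 0, with the median of all tested genes then at -0.23. A step added after seeing the data then centred the tested genes, by removing their median deviation on each array. After it 18 were above 0, 7 higher and 0 lower. With quantile normalization, 27 of the 53 genes on the other chromosomes were above 0 and 26 below. Of these 53, 3 were higher and 10 lower, and the median was 0.02. Under median scaling these 53 had 3 above 0 and 50 below, 0 higher and 19 lower, and a median of -0.24. Among all tested genes 40.3% then passed, 12.5% of these calls were higher, and the median was -0.23. With the tested genes centred, the 53 had 26 above 0 and 27 below, 2 higher and 9 lower. The 4 chromosomes were picked by the raised medians of all genes, so counts over all genes there restate the choice and are given only as background, with 817 higher and 88 lower of 1687 on them and 884 higher and 1654 lower of 7694 elsewhere.

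The 7 increases on these chromosomes were Mrpl49 and Mrpl21 on chromosome 19, Mrpl20 and Mrpl50 on chromosome 4, and Mrps34, Mrpl28 and Mrpl18 on chromosome 17. After each chromosome's median was removed from the values, 6 genes were higher and 12 lower, where 30.5% of all tested genes passed. Mrpl49 and Mrpl20 were still higher, by 0.44 and 0.34 (limma, Benjamini-Hochberg adjusted p = 0.00332 and 0.0228). Mrpl50 (0.15; adjusted p = 0.189), Mrps34 (0.07; 0.569), Mrpl28 (0.07; 0.498), Mrpl18 (0.05; 0.733) and Mrpl21 (-0.03; 0.787) did not pass. Mrpl58 on chromosome 11 and Mrps21 on chromosome 3 stood at 0.53 and 0.49 after the same step. Among the decreases, Mrpl24, Mrpl47, Mrps35, Mrps2, Mrpl17, Mrpl46, Mrpl15 and Mrps7 passed after it, and Mrpl23 and Mrpl52 (adjusted p = 0.244) did not.

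Against their nearest neighbours the pattern was similar. For each gene, the median difference of the nearest tested genes, up to 5 on each side along the chromosome, was set beside its own difference. Neighbours numbered 10 for 70 of the 73 genes, 9 for Mrps28, and 5 for Mrpl15 and Mrpl21, which lie at a chromosome's end in this order. Across the 73 genes, Pearson's r was 0.62 and Spearman's rho 0.61, a description across genes that share arrays and are not independent replicates. Mrpl20 differed by 0.62 among neighbours with a median of 0.47, and Mrpl24 by -0.59 among neighbours with a median of -0.46. Mrps35 (-0.55 beside -0.13) and Mrpl58 (0.50 beside 0.15) were farther from their neighbours. The brightest probe of Mrpl15 (-0.35 beside 0.07, from its 5 neighbours) had the opposite sign, but the probes of this gene disagreed. Whether chromosome number or another feature of the 2 clones moves with these values was not tested.

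**Figure D4:**
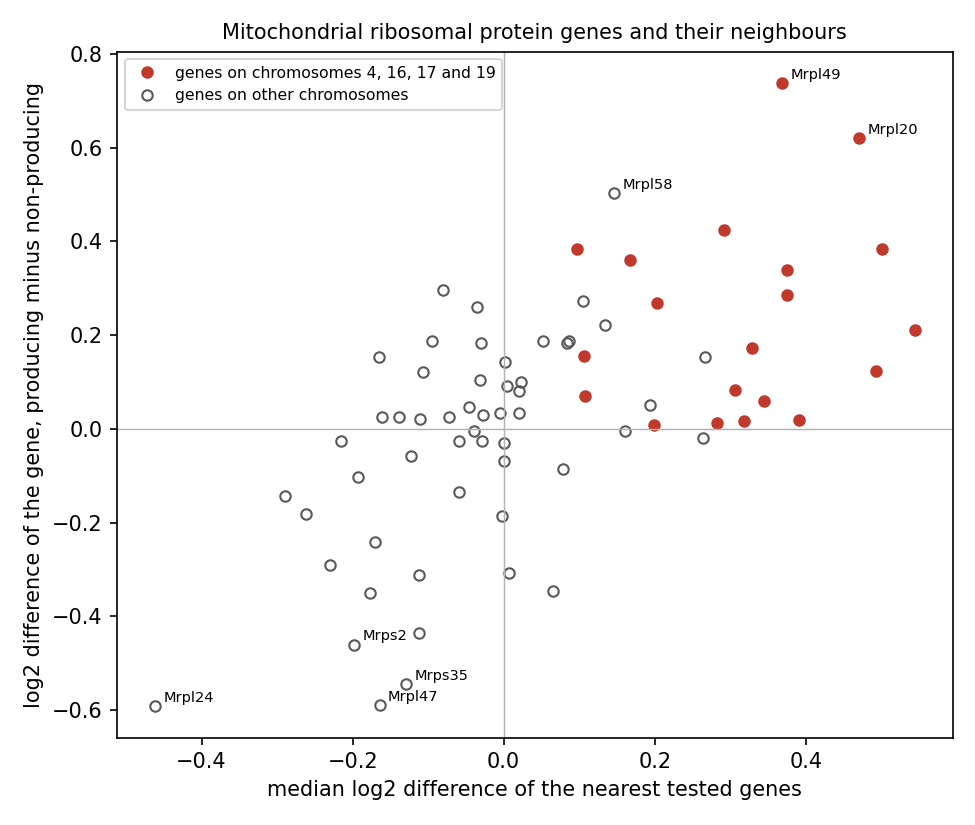
Log2 difference of each of the 73 tested genes, producing minus non-producing (y axis), against the median log2 difference of its nearest tested genes (x axis; up to 5 on each side, 10 in all for 70 genes, 9 for Mrps28 and 5 for Mrpl15 and Mrpl21), with 1 point a gene. Filled points are the 20 genes on chromosomes 4, 16, 17 and 19, all above 0 on the y axis under quantile normalization. Under median scaling, when the median of all genes is -0.23, 9 of the 20 are above 0. With the tested genes then centred, 18 of them are. The points rise from lower left to upper right.

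Promoter letters were also set beside the calls. At least 1 of the 3 motifs was found in 6 of the 9 genes that were higher and had a window, in 3 of the 8 that were lower and in 28 of the 48 that did not pass. The ETS core was found in 5 of the 9 higher, 2 of the 8 lower and 19 of the 48 genes that did not pass, without a test of these small counts. Both Mrpl58, which was higher, and Mrpl17, which was lower, carry an ETS core in the sequences shown, and Mrpl49 and Mrps7, of opposite direction, both carry AAGATGG just after the start.

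Other genes of mitochondrial translation were read from lists, which were chosen with earlier results of these data known. Of 4 tested genes of the ribosome with other names, Dap3, a small subunit protein that binds GTP, was lower. It averaged 13.32 ± 0.04 in the producing, against 13.80 ± 0.05 in the non-producing hybridoma (SD, n = 3 each; log2 difference -0.48; limma, adjusted p = 0.00174), and its other 3 probes were lower as well. Gadd45gip1, which encodes a large subunit protein, was higher by 0.40 on its brightest probe (limma, adjusted p = 0.0103) and read 0.07 on the other. Ptcd3 (-0.13) and Chchd1 (0.01) did not pass.

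Of 12 tested translation factors, 4 were lower and 0 higher (limma; 4 and 1 at an unadjusted p of 0.05), 11 were below 0 and the median was -0.14. The 4 that passed are 33.3% of the list, where 36.7% of all tested genes passed and 18.6% were lower. With the authors' processed values 1 was higher, and under median scaling 9 were lower, with a median of -0.42. Under that scaling 40.3% of all tested genes passed, 12.5% of these calls were higher, and the median of all genes was -0.23. With the tested genes then centred, 0 were higher and 4 lower, with a median of -0.18. Mtrf1, a release factor of mitochondria, averaged 6.62 ± 0.21 in the producing, against 7.68 ± 0.17 in the non-producing hybridoma (SD, n = 3 each; -1.06; limma, adjusted p = 0.0006), and its other probe was lower by -0.40. Gfm1, an elongation factor that moves the ribosome along, was lower by -0.67 (limma, adjusted p = 0.00268), but its other probe read -0.08. Guf1, a GTPase related to elongation factors, was lower by -0.63 (adjusted p = 0.00449), and Tufm, the factor that delivers aminoacyl-tRNA, by -0.27 (adjusted p = 0.0225). Tufm passed in only 2 of the 6 fits that left out 1 array, and not after chromosome medians were removed (adjusted p = 0.116).

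Of 22 tested genes of ribosome assembly and ribosomal RNA modification, 4 were higher and 3 lower, with a median of -0.02, beside 18.1% higher and 18.6% lower over all tested genes. Under median scaling 0 were higher and 10 lower, with a median of -0.28, beside -0.23 for all tested genes. With the tested genes then centred, 4 were higher and 3 lower, with a median of -0.03. Ybey, an RNA-processing enzyme of the small subunit, was higher by 0.57 (limma, adjusted p = 0.00253), Nsun4, a methyltransferase of the ribosomal RNA, by 0.47 (adjusted p = 0.00168) and Tfb1m, a dimethyltransferase of the small subunit RNA, by 0.41 (adjusted p = 0.0194, kept in 2 of 6 fits without 1 array). Mtg1, a GTPase of large subunit assembly, was lower by -0.50 (limma, adjusted p = 0.00173) on one probe and by -0.36 on the other. Nsun4 and Tfb1m lie on chromosomes 4 and 17 and did not pass after chromosome medians were removed (adjusted p = 0.0751 and 0.541).

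Genes of mitochondrial DNA and its transcripts gave 2 higher and 1 lower of 16 tested, with a median of 0.02, beside 18.1% higher and 18.6% lower over all tested genes. Under median scaling 0 were higher and 6 lower, with a median of -0.24, beside -0.23 for all tested genes. With the tested genes then centred, 2 were higher and 2 lower, with a median of 0.01. Lrpprc, which stabilizes mitochondrial messenger RNAs, was higher by 0.43 (limma, adjusted p = 0.0112; 0.20 and 0.18 on probes that did not pass), and Elac2, which trims the 3′ ends of transfer RNAs, by 0.49 on its brightest probe (adjusted p = 0.00354) with the other 3 between -0.01 and 0.02. Tfam, which packs mitochondrial DNA, was lower by -0.31 (limma, adjusted p = 0.0166) and passed in 4 of the 6 fits that left out 1 array. Its other probe read -0.16 and did not pass (limma, adjusted p = 0.205). After chromosome medians were removed, Lrpprc on chromosome 17 did not pass (adjusted p = 0.393).

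Among 10 tested regulators of nuclear genes for mitochondria, 2 were higher and 2 lower, beside 18.1% and 18.6% over all tested genes. Under median scaling 0 were higher and 2 lower, with a median of -0.22 beside -0.23 for all genes. With the tested genes then centred, 2 were higher and 2 lower. Nrf1 averaged 10.91 ± 0.04 in the producing, against 10.51 ± 0.04 in the non-producing hybridoma (SD, n = 3 each; difference 0.41; limma, adjusted p = 0.00387). Its other probe read 0.31 and did not pass (limma, adjusted p = 0.114). Esrra, a nuclear receptor that works with PGC-1 coactivators, was higher by 0.51 (limma, adjusted p = 0.0134). Gabpb1, the partner subunit of the ETS factor Gabpa, was lower by -0.43 (limma, adjusted p = 0.00512) and by -0.52 on another probe, while the remaining one read 0.08 and did not pass. Gabpa itself read 0.07 (adjusted p = 0.625). Sp1, a general promoter factor, read 0.02 on its brightest probe and -0.43 on another that passed (limma, adjusted p = 0.015). Ppargc1b, a coactivator, was lower by -0.50 (adjusted p = 0.0124). Esrra, on chromosome 19, did not pass after chromosome medians were removed (adjusted p = 0.225). The probes of Yy1, Ppargc1a and Mycn were not above background on enough arrays for a test.

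For comparison, 25% of 52 tested cytosolic ribosomal protein genes passed, 11 higher and 2 lower, with a median of 0.08. The respiratory chain subunits, among which are the partners of the proteins that mitochondrial ribosomes make, had 15 higher and 2 lower of 69 tested (24.6%) and a median of 0.08. The counts depended on the scaling. With the array median alone the cytosolic family had 5 higher and 4 lower and a median of -0.06. The respiratory chain then had 3 higher and 7 lower and a median of -0.13, beside -0.23 for all tested genes. A step added after seeing the data then centred the tested genes. After it the cytosolic family had 14 higher and 1 lower (median 0.18), and the respiratory chain 18 higher and 3 lower (0.12). With quantile normalization and chromosome medians removed, the cytosolic family had 13 higher and 2 lower, and the respiratory chain 8 higher and 1 lower. The mitochondrial ribosomal protein genes then had 6 higher and 12 lower, where 30.5% of all tested genes passed. Neither family was tested against the mitochondrial ribosomal protein genes, whose 10 increases and 10 decreases stand beside them in the plot of differences by gene group.

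**Figure D5:**
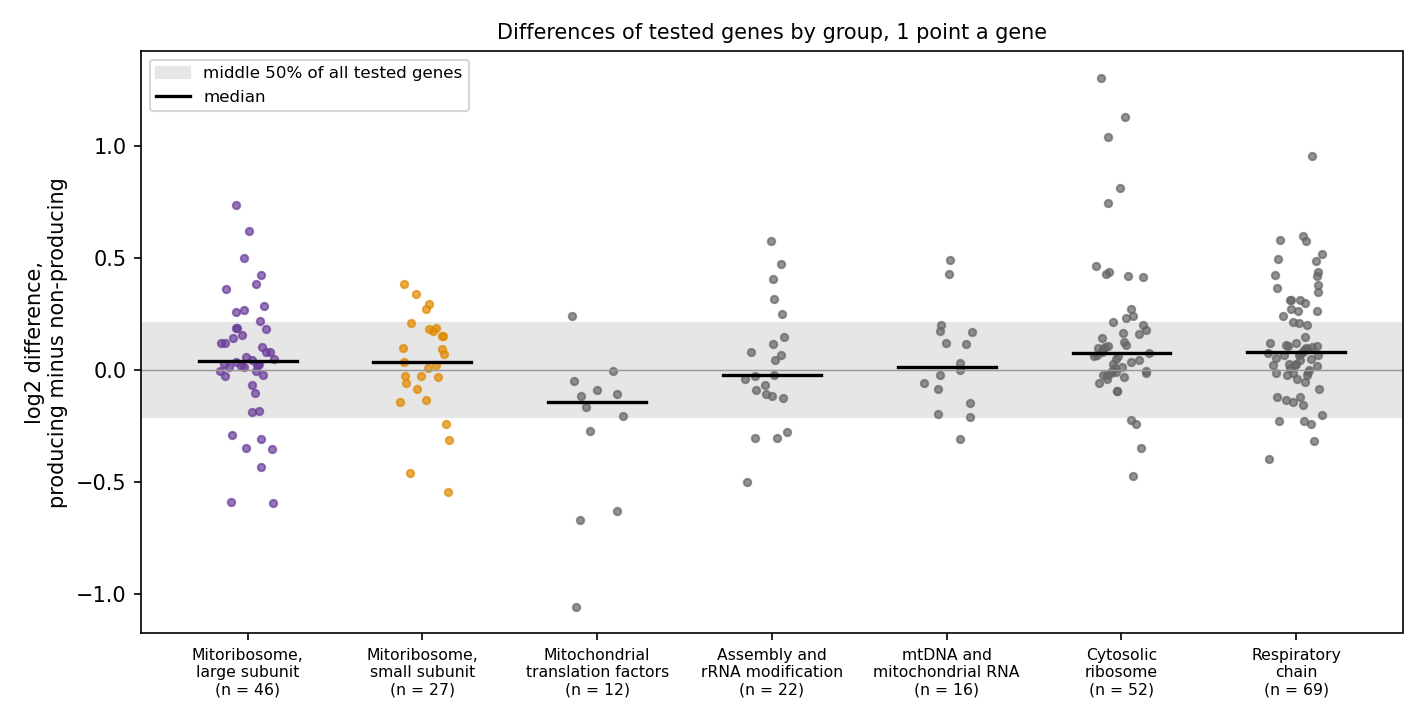
Log2 difference of each tested gene, producing minus non-producing (y axis), in 7 gene groups (x axis, with the number of tested genes), with 1 point a gene, a black line at the group's median and a grey band for the middle 50% of all tested genes (-0.21 to 0.21). The medians of the large and small subunit are 0.04 and 0.03 (both -0.21 under median scaling, when the median of all genes is -0.23), that of the translation factors is -0.14, and those of the cytosolic ribosome and the respiratory chain are both 0.08.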

How the data were processed

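Total RNA of 6 mouse hybridoma samples, 3 producing and 3 non-producing, was measured on Illumina bead arrays with 45281 probes. The authors deposited, for each probe and array, an average signal intensity without normalization and a detection score between 0 and 1. Per the file headers this score is a detection p-value, but it rises with signal, so it was read as 1 minus the p-value. A second deposited table holds the authors' processed intensity values, which share 1 distribution over the arrays, and served as an alternative. The scanner's software is not given in the sources used here, and the signals, none near 0, were read as not background-subtracted.

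Signals were processed with neqc of limma 3.58.1 in R 4.3.3 (negative controls inferred from detection p-values, offset 16, quantile normalization, log2). The 17445 probes with a detection p under 0.05 on at least 3 of 6 arrays were fitted with lmFit and eBayes, two-sided and without covariates, and adjusted together by Benjamini-Hochberg with a threshold of 0.05. The fit was also run on simulated data. Each probe was drawn independently there, so that run does not bear on values that shift together by chromosome. The number of arrays limits precision. The annotation used here gave 1 symbol to 34885 probes and several to 18, and left 10378 without an entry. All 76 member genes matched the RefSeq gene table by gene ID, which gave chromosome and gene order. Per-array values are given for the 8 largest increases and decreases past the threshold and for the gene whose probes passed in opposite directions. Mrps10, Mrps12 and Mrps15, with per-array values, and the probes of Mrpl37, Mrpl43, Mrpl48 and Sp1, with differences alone, were picked after their values were seen. The members and lists were chosen with earlier results of these data known. Alternatives covered background correction, normalization, the authors' values, the detection filter, the eBayes options, the probe read per gene, chromosome medians, a replicate block and each array left out.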

Additional observations from a re-analysis of the deposited data

How the results depend on the processing

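Of the 20 genes past the threshold, all passed it under normexp without negative controls, no background correction, cyclic loess, the authors' processed values, detection on all 6 arrays, detection p under 0.01, eBayes with trend and robust, and the probe of smallest detection p. Scaling by the array median alone gave 2 higher and 19 lower genes and medians of -0.21 for the large and -0.21 for the small subunit, as the median of all tested genes moved to -0.23 and higher calls made up 12.5% of all calls, against 49.4% with quantile normalization. With the tested genes then centred, an alternative added after seeing the data, 9 were higher and 9 lower. Mrpl27 stood at -0.026 under median scaling. Removal of chromosome medians gave 6 higher genes, and Mrpl14 (-0.29), Mrpl16 (-0.29), Mrpl21 (-0.031), Mrps10 (-0.24) and Mrps6 (-0.25) were then below 0. All of these but Mrpl21 then passed as lower, and Mrps12 passed as higher. Mrps10 and Mrps12 were read here from their brightest probes. Another probe of each gave a different value in the main fit, as described above, so no direction is given for these genes. Counted one by one, 16 of the 114 tested probes of these genes were higher. Leaving out each array in turn gave 6 to 8 higher and 7 to 10 lower genes, with 6 higher without producing replicate 1. Of all tested genes 28.1% to 31.7% passed in these fits, against 36.7% with all 6 arrays. Their medians were 0.02 to 0.06 for the large and 0.01 to 0.08 for the small subunit genes. Samples of the same number did not deviate together (correlations -0.04, -0.16 and 0.09). The fit with the number as a replicate block gave 7 higher and 9 lower genes, where 32.1% of all tested genes passed. The cause of these shifts was not tested. Without the detection filter, Mrpl52 did not pass, and with the mean of tested probes, Mrpl15 did not. No difference was detectable for Mrpl19, Mrpl32 and Mrps14, whose signals were not above background.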
